A study of Mus with 6 samples.

Results

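Activated CD4+ T cells were examined here through their actin, tubulin and cytoskeleton regulator genes: the cytoplasmic actins, the proteins that hold, cut, cap or branch actin, and the tubulins with the complex that nucleates microtubules. Members were every gene whose symbol begins with Tuba, Tubb, Tubg, Actg, Actr, Actn, Arpc, Capz, Pfn, Tmsb, Myl or Coro, together with Actb, Cfl1, Cfl2 and Tpm1 to Tpm4, and whose mean level over the 6 libraries was at least 1 FPKM (fragments counted on a gene, divided by its length and by the size of the library). The symbols matched 66 genes, of which 61 passed that level, among 8816 genes tested and 10995 genes listed. The 5 genes under the level were Tubgcp5, Tubgcp6, Myl10, Myl7 and Actr3b. Matching by symbol also brought in Mylip, which encodes a ubiquitin ligase, and Actr5, Actr6 and Actr8, actin-related proteins of nuclear chromatin remodelling complexes.

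The study measured RNA by RNA-Seq in naive CD4+ T cells from the spleens of wild-type mice. Both groups were activated for 3 days with anti-CD3 at 5 μg/mL, anti-CD28 at 2 μg/mL and IL-2 at 100 U/mL. To 1 group a neutralizing antibody to VEGF-B, a growth factor of the VEGF family, was added (1 μg/mL), and to the control group the same dose of normal IgG, with 3 libraries in each group. The comparison asks which transcripts differ when VEGF-B in the culture is blocked during activation, and no unstimulated or untreated cells entered it. The labels do not say whether the 3 libraries of a group came from separate mice or cultures, so the p-values measure the spread between these libraries, which may be technical.

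Actin filaments grow from monomers that profilins deliver and that beta-thymosins hold in reserve. The Arp2/3 complex branches filaments, capping protein stops their growth, cofilins sever them, and tropomyosins, alpha-actinins and myosins make them into contractile bundles. Microtubules are polymers of alpha- and beta-tubulin that start from gamma-tubulin rings, and dynactin links the motor dynein to its cargo along them. In T cells, actin flow and the movement of the microtubule organizing centre build the contact with the antigen-presenting cell, and activated T cells enlarge and divide, which uses both systems.

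The libraries differed in ways that touch every level given here. Summed FPKM of the whole table ran from 260058 to 276622 with no separation of the groups, whereas 59 to 91 of the listed genes were at 0 with anti–VEGF-B against 36 to 37 with IgG. The median level of the tested genes was 5.43 to 5.67 FPKM with anti–VEGF-B and 6.20 to 7.08 FPKM with IgG, and the median log2 fold change over all tested genes was -0.15. Fold changes below are on the log2(FPKM + 1) scale, anti–VEGF-B minus IgG, which understates the change of genes near 1 FPKM. The T cell identity of the samples showed in Cd4, at 64.8 to 73.4 FPKM with anti–VEGF-B and 64.0 to 74.6 FPKM with IgG, and in Cd3d and Lck, at 100 to 119 and 75.4 to 91.0 FPKM over the 6 libraries. The sum of the 4 measured T cell markers did not separate the groups, but 1 of them, Cd3e, fell with anti–VEGF-B by 0.51 on the log2 scale (limma adjusted p = 0.0197), and Cd3g was at -0.43 (limma adjusted p = 0.0621). The part of this in the results below was not tested. Of the markers of other cells, Cd8a was at most 0.182 FPKM, Cd8b1 at 2.27 to 4.51 FPKM, and Cd79b, the 1 B cell marker measured, at most 1.34 FPKM. The sum of the 3 measured myeloid markers was 3.95 to 5.11 FPKM with anti–VEGF-B, against 4.60 to 19.8 FPKM with IgG, the top value being that of IgG replicate 3. Without that library 8 of the 61 members passed the test, against 21.0% of all genes, and 6 of the 8 were among the 11 called with all libraries. The 1 measured fibroblast or smooth muscle marker, Tagln, was at 1.24 to 2.27 FPKM over the 6 libraries. The NK cell and erythroid or platelet markers were not analysed here. In bulk samples, fewer cells of a type and less RNA per cell cannot be told apart.

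Among the 61 members, 11 differed between the groups at an adjusted p under 0.05 by limma with Benjamini-Hochberg adjustment over all tested genes, which is 18.0% of them against 28.7% of all tested genes. The 9 that fell with anti–VEGF-B (14.8%, against 23.8% of all genes) were Actr1a, Tmsb15b1, Coro2a, Mylip, Actn1, Tpm4, Arpc1b, Cfl2 and Tubgcp4. The 2 that rose (3.28%, against 4.87% of all genes) were Actr10 and Tuba1b. When limma used the variance of each gene alone, 0 members passed, 16 of them having an unadjusted p under 0.05 in that fit, and 12 genes passed in the whole table. The median log2 fold change of the 61 members was -0.08, which lies 0.07 above the median of all genes. That difference turned to -0.0174 and -0.0298 under quantile and loess normalization, and was 0.0674 after scaling to Actb. Median centring moves all genes by the same amount, so it leaves the difference at 0.0719 whatever the data. On the deposited scale 41 members were below 0 and 20 above it, where 28.8% of all genes lay above 0. By an unadjusted limma p under 0.05 and a log2 fold change past 0.5 in size, 4 members were taken (all lower), against 12.7% of all genes. The 3 libraries of each group did not overlap for 19 members that were lower with anti–VEGF-B (31.1%, against 38.5% of all genes) and for 8 that were higher (13.1%, against 10.5%).

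**Figure D1:**
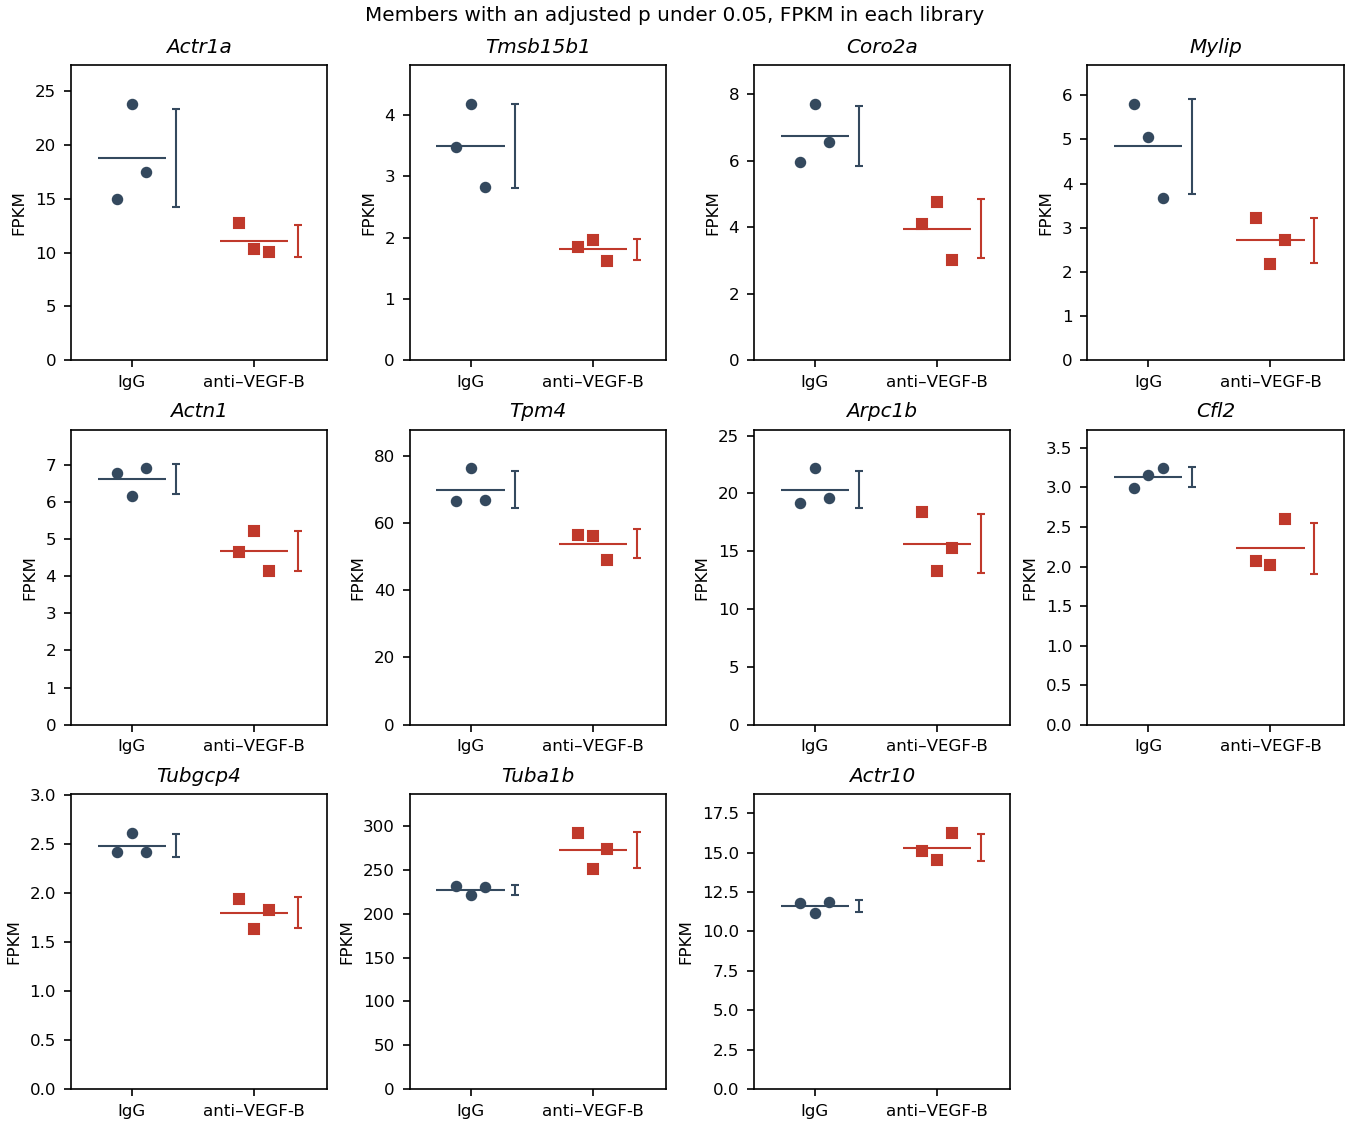
FPKM (linear axes from 0, 1 panel a gene) of the 11 called members in each library, circles for IgG and squares for anti–VEGF-B, with a horizontal line at the group mean and the SD drawn beside it (n = 3). In each of the 11 genes the 3 anti–VEGF-B libraries lie on 1 side of the 3 IgG libraries, and Actr10 and Tuba1b are the 2 that are higher with anti–VEGF-B.

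The most abundant members were the beta-thymosin Tmsb10, the beta-tubulin Tubb5, the gamma-actin gene Actg1, the beta-thymosin Tmsb4x, the beta-actin gene Actb and the Arp2/3 subunit Arpc2. Together these 6 genes made up 68.5% ± 1.08 of the members' summed FPKM with anti–VEGF-B, against 65.6% ± 1.5 with IgG (SD, n = 3 each), and the groups did not overlap. The whole family took 2.28% ± 0.0299 of the table's FPKM with anti–VEGF-B, against 2.17% ± 0.0409 with IgG, again without overlap. FPKM is divided by gene length, so these shares compare levels between genes on that scale.

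The cytoplasmic actins, which form the filaments of non-muscle cells, were among the highest transcripts and neither passed the test on the deposited scale. Actg1 (chromosome 11, 120345690 to 120348542, GRCm38) measured 702, 628 and 680 FPKM with anti–VEGF-B and 603, 572 and 573 FPKM with IgG. Actb, often used as a constant reference, measured 541, 461 and 468 FPKM with anti–VEGF-B and 501, 529 and 507 FPKM with IgG. All 3 anti–VEGF-B libraries were above the IgG libraries for Actg1, whereas the groups overlapped for Actb. The log2 fold change of Actg1 was 0.20 (SE 0.0764, limma adjusted p = 0.0764), which became 0.40 and passed the test after median centring (limma adjusted p = 0.0355) and was 0.0812 after quantile normalization. That of Actb was -0.07 (SE 0.0838, limma adjusted p = 0.557), the latter turning to 0.13 when each library was centred on its median gene. Within the actin pool the share of Actg1 was 57.8% ± 1.39 with anti–VEGF-B, against 53.2% ± 1.36 with IgG (SD, n = 3 each). The summed FPKM of both actins overlapped between the groups, at 1160 ± 77.7 with anti–VEGF-B and 1095 ± 13.7 with IgG. These 2 genes encode near-identical proteins and have processed pseudogenes. How far the split between them depends on the assignment of shared reads was not tested.

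Of the 6 genes for proteins that bind actin monomers, 1 passed the test. Tmsb15b1, a minor beta-thymosin (chromosome X, 136974022 to 136976874), measured 1.84, 1.96 and 1.62 FPKM with anti–VEGF-B and 3.48, 4.19 and 2.82 FPKM with IgG. The groups were well apart, and it fell by 0.67 on the log2 scale (SE 0.129, limma adjusted p = 0.00956), which held with each library left out in turn and under all 4 other scalings. Its locus overlaps that of Tmsb15l on the same strand, and Tmsb15l measured 2.42, 4.96 and 2.88 FPKM with anti–VEGF-B and 3.14, 4.01 and 2.59 FPKM with IgG. Tmsb15l overlapped between the groups (log2 fold change 0.03, limma adjusted p = 0.927), and the way reads were divided between these overlapping genes was not tested.

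The abundant thymosins sequester far more actin monomer in T cells. Tmsb10 measured 1304, 1264 and 1418 FPKM with anti–VEGF-B and 1162, 1020 and 1139 FPKM with IgG. Tmsb4x measured 555, 483 and 547 FPKM with anti–VEGF-B and 553, 564 and 554 FPKM with IgG. All anti–VEGF-B libraries were above the IgG libraries for Tmsb10, and for Tmsb4x the groups overlapped. The log2 fold change of Tmsb10 was 0.26 (SE 0.0877, limma adjusted p = 0.0501), just over the threshold, and it was called without IgG replicate 1 (0.30, limma adjusted p = 0.0421). For Tmsb4x it was -0.08 (limma adjusted p = 0.459), which became 0.12 after median centring and, under quantile normalization, passed the test as a lower value (-0.20, limma adjusted p = 0.0493).

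The profilins, which load monomers onto growing filament ends, were both lower with anti–VEGF-B in every library without passing the test. Pfn1 measured 130, 115 and 114 FPKM with anti–VEGF-B and 149, 146 and 131 FPKM with IgG. Pfn2 measured 1.01, 0.666 and 0.942 FPKM with anti–VEGF-B and 1.31, 1.23 and 1.35 FPKM with IgG. The closest values in Pfn1 were those of anti–VEGF-B replicate 1 and IgG replicate 3, and the call for Pfn1 (-0.25, SE 0.0834, limma adjusted p = 0.0508) was gained without either of them (-0.31, limma adjusted p = 0.0457 without the former, and -0.31, limma adjusted p = 0.0482 without the latter). Pfn1 also passed under quantile (-0.29, limma adjusted p = 0.0239) and loess normalization (-0.31, limma adjusted p = 0.0228), and was at -0.0487 after median centring (limma adjusted p = 0.733).

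Of the 9 measured subunits of the Arp2/3 complex, which nucleates branched actin at the immune synapse, 1 passed the test. That subunit was Arpc1b, the less abundant ARPC1 form in each of these libraries (chromosome 5, 145114215 to 145130705), with 18.4, 13.3 and 15.3 FPKM with anti–VEGF-B and 19.2, 22.2 and 19.6 FPKM with IgG. Anti–VEGF-B replicate 1 came within 1 FPKM of the lowest IgG library. It fell by 0.37 on the log2 scale (SE 0.117, limma adjusted p = 0.0446), and the call was lost without any 1 of anti–VEGF-B replicates 2 and 3 and IgG replicates 1, 2 and 3 (limma adjusted p = 0.122, 0.116, 0.0576, 0.131 and 0.0740) and under all 4 other scalings. Its paralog Arpc1a measured 22.4, 21.2 and 20.4 FPKM with anti–VEGF-B and 23.2, 24.9 and 22.5 FPKM with IgG (-0.14, limma adjusted p = 0.207, and 0.07 after median centring). Arpc1b overlaps Pdap1 on the opposite strand, and how the reads of that overlap were counted was not tested.

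The other Arp2/3 subunits moved in both directions without passing the test. Arpc2, the most abundant, measured 310, 307 and 292 FPKM with anti–VEGF-B and 278, 286 and 275 FPKM with IgG, higher in each library given anti–VEGF-B (0.11, limma adjusted p = 0.219). The actin-like subunit Actr3 measured 79.0, 54.5 and 49.9 FPKM with anti–VEGF-B and 75.7, 76.0 and 76.9 FPKM with IgG, so that anti–VEGF-B replicate 1 stood with the IgG libraries. Actr3 was at -0.34 (limma adjusted p = 0.104) and passed the test once that library was left out (-0.54, limma adjusted p = 0.0151). Its partner Actr2 measured 33.4, 29.5 and 29.4 FPKM with anti–VEGF-B and 32.3, 44.7 and 38.3 FPKM with IgG, at -0.30 (limma adjusted p = 0.0764), and passed without IgG replicate 1 (-0.42, limma adjusted p = 0.0236).

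The ARPC5 subunits, a pair of alternative small subunits of the complex, were lower on average with anti–VEGF-B without passing the test. Arpc5 measured 27.9, 32.6 and 29.3 FPKM with anti–VEGF-B and 32.3, 74.6 and 33.4 FPKM with IgG. IgG replicate 2 was above all others, and the remaining 5 libraries lay between 27.9 and 33.4 FPKM with the groups overlapping. Its log2 fold change was -0.52 (SE 0.266, limma adjusted p = 0.165) with all libraries and -0.13 (SE 0.0906, limma adjusted p = 0.334) without IgG replicate 2. Arpc5l measured 3.71, 3.86 and 3.26 FPKM with anti–VEGF-B and 3.96, 5.70 and 4.57 FPKM with IgG, at -0.31 (limma adjusted p = 0.0961), and passed without IgG replicate 1 (-0.41, limma adjusted p = 0.0458). Arpc3 measured 94.2, 73.0 and 89.8 FPKM with anti–VEGF-B and 71.2, 70.9 and 72.9 FPKM with IgG, so that anti–VEGF-B replicate 2 all but met the IgG libraries. It was at 0.25 (limma adjusted p = 0.0847), and passed without anti–VEGF-B replicate 2 (0.36, limma adjusted p = 0.0251). Arpc4 was at -0.04 (limma adjusted p = 0.755), turning to 0.16 after median centring and 0.0245 after scaling to Actb.

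Capping protein, a heterodimer that closes the fast-growing filament end, gave none of 3 members past the test, and all 3 overlapped between the groups. Capza1 measured 80.0, 72.8 and 77.0 FPKM with anti–VEGF-B and 75.1, 79.1 and 79.0 FPKM with IgG. Capza2 measured 35.0, 33.0 and 35.9 FPKM with anti–VEGF-B and 32.4, 34.2 and 34.6 FPKM with IgG. Both alpha subunits, and Capzb at 59.9 to 70.6 FPKM with anti–VEGF-B and 61.7 to 75.4 FPKM with IgG, had log2 fold changes between -0.07 and 0.04, where Capza1 (-0.02) turned to 0.18 after median centring and 0.05 after scaling to Actb and Capzb (-0.07) to 0.13 after median centring.

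The cofilins and coronins, which sever filaments and recruit that machinery, gave 2 of 7 members past the test, both of low level. Coro2a, a coronin (chromosome 4, 46536937 to 46602202), measured 4.11, 4.75 and 3.01 FPKM with anti–VEGF-B and 5.96, 7.72 and 6.55 FPKM with IgG. The groups were apart by more than 1 FPKM, and it fell by 0.65 on the log2 scale (SE 0.147, limma adjusted p = 0.0143), past the threshold with each library left out in turn and under all 4 other scalings. Cfl2, the cofilin best known from muscle (chromosome 12, 54858809 to 54862877), measured 2.07, 2.02 and 2.60 FPKM with anti–VEGF-B and 2.99, 3.16 and 3.24 FPKM with IgG. It fell by 0.36 (SE 0.107, limma adjusted p = 0.0357), a call that was lost without any 1 of anti–VEGF-B replicates 1 and 2 and IgG replicates 2 and 3 (limma adjusted p = 0.102, 0.105, 0.0707 and 0.0949) and under all 4 other scalings.

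The abundant members of the same group differed little. Cfl1, the main cofilin of blood cells, measured 228, 253 and 216 FPKM with anti–VEGF-B and 239, 242 and 222 FPKM with IgG. Coro1a, the coronin of lymphocytes, measured 160, 159 and 159 FPKM with anti–VEGF-B and 149, 153 and 145 FPKM with IgG. Coro1a was higher in every anti–VEGF-B library, while Cfl1 overlapped. Their log2 fold changes were 0.09 for Coro1a (limma adjusted p = 0.282) and -0.01 for Cfl1 (limma adjusted p = 0.912), which turned to 0.19 after median centring and 0.05 after scaling to Actb. Coro1b measured 57.7, 52.6 and 58.0 FPKM with anti–VEGF-B and 56.9, 59.7 and 51.0 FPKM with IgG, at 0.01, or -0.01 after loess normalization.

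The tropomyosins and alpha-actinins coat and cross-link contractile actin bundles. They were the 1 actin-side role in which every member lay below 0 on the deposited scale, with 2 of 5 past the test. Over all tested genes, 71.2% were lower with anti–VEGF-B and 23.8% were called lower. Tpm4 (chromosome 8, 72134975 to 72153142) measured 56.5, 56.2 and 48.9 FPKM with anti–VEGF-B and 66.5, 76.3 and 67.0 FPKM with IgG. Actn1 (chromosome 12, 80167547 to 80260371) measured 4.64, 5.22 and 4.15 FPKM with anti–VEGF-B and 6.76, 6.16 and 6.90 FPKM with IgG. Every anti–VEGF-B library was below every IgG library in both genes. Tpm4 fell by 0.37 on the log2 scale (SE 0.0882, limma adjusted p = 0.0172) and lost the call without anti–VEGF-B replicate 3 or IgG replicate 2 (limma adjusted p = 0.0666 and 0.0515), after median centring and after scaling to Actb. Actn1 fell by 0.43 (SE 0.104, limma adjusted p = 0.0183) and lost the call without anti–VEGF-B replicate 3 or IgG replicate 3 (limma adjusted p = 0.0743 and 0.0554) and under all 4 other scalings.

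The related genes that did not pass stood at smaller values. Tpm3 measured 40.5, 45.3 and 38.3 FPKM with anti–VEGF-B and 46.1, 56.5 and 47.7 FPKM with IgG, without overlap (-0.27, limma adjusted p = 0.0682). Actn4, the more abundant alpha-actinin, measured 28.8, 28.7 and 27.8 FPKM with anti–VEGF-B and 29.3, 32.3 and 28 FPKM with IgG, with overlap (-0.07, limma adjusted p = 0.535, and 0.13 after median centring). The 5 genes summed to 131 ± 8.66 FPKM with anti–VEGF-B and 160 ± 13.3 FPKM with IgG (SD, n = 3 each), without overlap, and their median log2 fold change of -0.27 stayed below 0 under the 4 other scalings (-0.23 to -0.07).

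Among the myosin light chains, which regulate the motor that contracts these bundles, none of 6 passed the test, and 2 had a limma p under 0.05 before adjustment. Myl6, the essential light chain, measured 54.6, 54.8 and 52.9 FPKM with anti–VEGF-B and 51.5, 55.1 and 48.8 FPKM with IgG. The regulatory light chain Myl12a measured 47.3, 43.8 and 50.4 FPKM with anti–VEGF-B and 51.6, 62.5 and 49.5 FPKM with IgG. Both overlapped between the groups. Myl12b, its neighbour on chromosome 17, measured 23.6, 21.5 and 24.3 FPKM with anti–VEGF-B and 27.8, 31.6 and 25.1 FPKM with IgG, without overlap, and its -0.27 (limma adjusted p = 0.0644) passed the test without IgG replicate 3 (-0.34, limma adjusted p = 0.0436). Mylip, matched by its name alone (chromosome 13, 45389742 to 45412022), measured 3.22, 2.19 and 2.73 FPKM with anti–VEGF-B and 5.81, 5.05 and 3.68 FPKM with IgG. It fell by 0.65 on the log2 scale (SE 0.158, limma adjusted p = 0.0186), a call lost without anti–VEGF-B replicate 2, anti–VEGF-B replicate 3 or IgG replicate 2 (limma adjusted p = 0.0573, 0.0566 and 0.0518) and under 3 of the 4 other scalings.

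**Figure D2:**
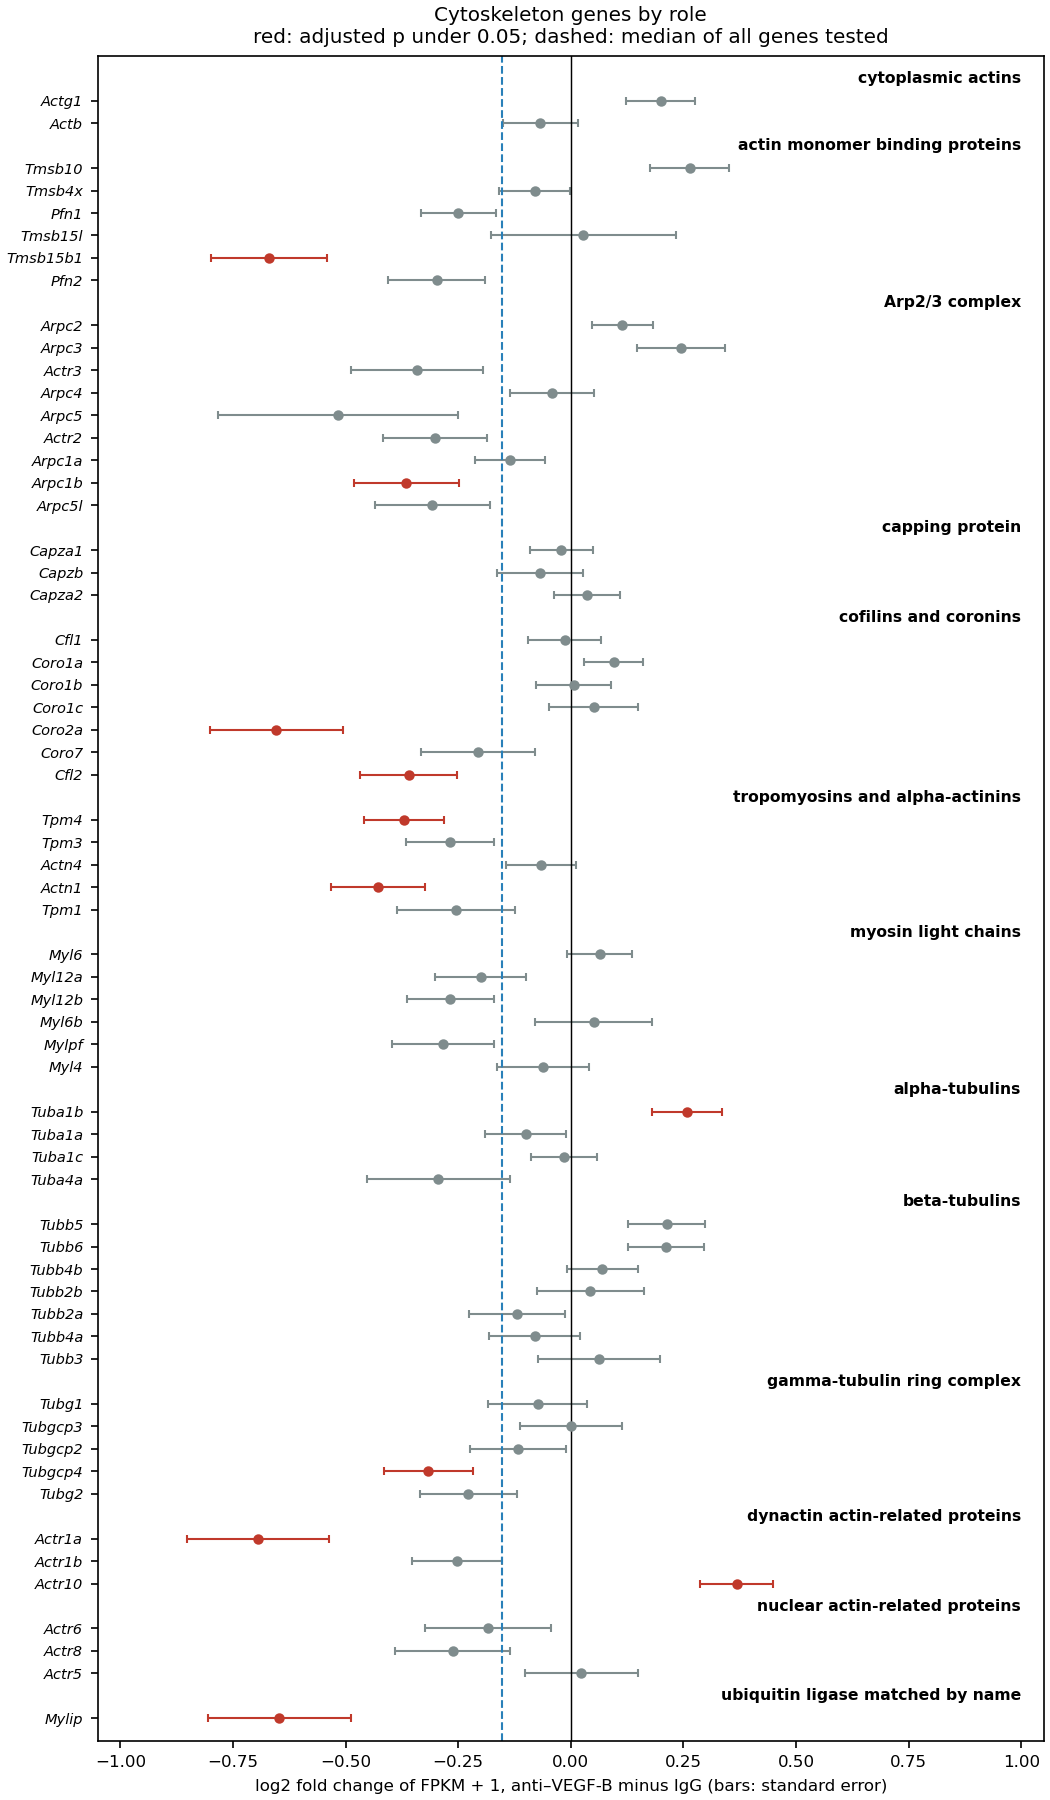
Log2 fold change (log2(FPKM + 1) scale, anti–VEGF-B minus IgG) of each of the 61 members, set out by role, with bars for the standard error, red for the 11 called members and a dashed line at the median of all tested genes. All 5 tropomyosins and alpha-actinins lie below 0 on this scale (Actn4 lay above it after median centring). Of the 7 beta-tubulins 5 lie above 0, and of all tested genes 28.8% did.

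Among the alpha-tubulins, which form microtubules with beta-tubulin, 1 of 4 passed the test, and it was the most abundant. Tuba1b (chromosome 15, 98931425 to 98934565) measured 292, 251 and 274 FPKM with anti–VEGF-B and 231, 221 and 230 FPKM with IgG. Every anti–VEGF-B library was above every IgG library, and it rose by 0.26 on the log2 scale (SE 0.0773, limma adjusted p = 0.0359). The call was kept without anti–VEGF-B replicate 2 and lost without any other library (limma adjusted p = 0.0508 to 0.115), and it was lost under quantile and loess normalization (limma adjusted p = 0.0697 and 0.0512).

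The remaining alpha-tubulins did not share that difference. Tuba1a measured 70.3, 63.8 and 58.3 FPKM with anti–VEGF-B and 69.6, 63.4 and 73.2 FPKM with IgG, with overlap (-0.10, limma adjusted p = 0.417, and 0.10 after median centring). Tuba4a measured 4.0, 2.49 and 2.21 FPKM with anti–VEGF-B and 3.61, 3.71 and 3.76 FPKM with IgG, with anti–VEGF-B replicate 1 above the IgG libraries and the other two below them. Its -0.29 (limma adjusted p = 0.181) passed the test without that library (-0.49, limma adjusted p = 0.0287). Tuba1c was at -0.02 (limma adjusted p = 0.885), turning to 0.19 after median centring and 0.0511 after scaling to Actb. The 4 genes summed to 395 ± 26.3 FPKM with anti–VEGF-B and 356 ± 8.49 FPKM with IgG, and Tuba1b made up 68.9% ± 1.87 and 63.9% ± 0.323 of those sums (SD, n = 3 each), both without overlap.

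None of the 7 beta-tubulins passed the test, although 2 had a limma p under 0.05 before adjustment. Tubb5, the predominant beta-tubulin of lymphocytes, measured 934, 836 and 910 FPKM with anti–VEGF-B and 822, 710 and 781 FPKM with IgG. Tubb6 measured 85.2, 81.5 and 72.3 FPKM with anti–VEGF-B and 72.9, 64.3 and 68.5 FPKM with IgG. Tubb5 did not overlap between the groups, and Tubb6 overlapped through anti–VEGF-B replicate 3 and IgG replicate 1 alone. Both were at 0.21 (limma adjusted p = 0.0907 for Tubb5 and 0.0885 for Tubb6). Tubb4b measured 55.8, 48.6 and 50.3 FPKM with anti–VEGF-B and 51.8, 47.8 and 47.5 FPKM with IgG (0.07, limma adjusted p = 0.521). Tubb2a measured 8.27, 8.48 and 9.38 FPKM with anti–VEGF-B and 11.0, 8.76 and 8.93 FPKM with IgG (-0.12, limma adjusted p = 0.414), turning to 0.08, 0.04 and 0.03 after median centring, quantile and loess normalization. The summed beta-tubulins were higher with anti–VEGF-B in every library, at 1051 ± 55.6 against 916 ± 64.4 FPKM (SD, n = 3 each). Tubulin genes are similar in sequence, and how far values of single genes depend on the assignment of shared reads was not tested.

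The gamma-tubulin ring complex, from which microtubules grow at the centrosome, summed to 17.1 ± 0.161 FPKM with anti–VEGF-B and 19.0 ± 0.804 FPKM with IgG (SD, n = 3 each), without overlap. The median log2 fold change of its members was -0.12. It turned to 0.0839, 0.103 and 0.103 under median centring, quantile and loess normalization, and was -0.0605 after scaling to Actb. Tubgcp4 (chromosome 2, 121170654 to 121198770) measured 1.94, 1.64 and 1.82 FPKM with anti–VEGF-B and 2.42, 2.62 and 2.42 FPKM with IgG. It was the 1 of 5 members past the test, where it fell by 0.32 on the log2 scale (SE 0.0983, limma adjusted p = 0.0404), and it lost the call with any 1 library left out (limma adjusted p = 0.0569 to 0.118) and under all 4 other scalings. It overlaps Trp53bp1 and Zscan29 on the opposite strand. Tubg1, gamma-tubulin itself, measured 6.06, 5.05 and 4.95 FPKM with anti–VEGF-B and 6.22, 5.67 and 5.15 FPKM with IgG, at -0.07 (limma adjusted p = 0.630), which turned to 0.13, 0.13 and 0.12 under median centring, quantile and loess normalization. Of the ring genes under the level filter, Tubgcp5 was at 0.278 to 0.428 FPKM with anti–VEGF-B and 0.575 to 0.956 FPKM with IgG, and Tubgcp6 at 0.304 to 0.409 and 0.587 to 1.12 FPKM. In a fit with no filter on level these 2 passed the test at -0.39 (limma adjusted p = 0.0248) and -0.37 (limma adjusted p = 0.0456). In that fit 21.2% of all genes were called lower.

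The 3 actin-related proteins of dynactin, the adaptor of the dynein motor, were all apart between the groups but not in 1 direction. Of all tested genes, 49.0% were apart, 38.5% lower and 10.5% higher with anti–VEGF-B. Actr1a, which forms the short actin-like filament of dynactin (chromosome 19, 46376814 to 46395735), measured 12.8, 10.3 and 10.1 FPKM with anti–VEGF-B and 15.0, 23.9 and 17.5 FPKM with IgG. Actr10, the subunit that caps the pointed end of that filament (chromosome 12, 70937857 to 70964718), measured 15.1, 14.6 and 16.3 FPKM with anti–VEGF-B and 11.8, 11.2 and 11.9 FPKM with IgG. Actr1a was lower in each anti–VEGF-B library and Actr10 was higher in each of them. Actr1a fell by 0.69 on the log2 scale (SE 0.158, limma adjusted p = 0.0147), the lowest value of any member, and Actr10 rose by 0.37 (SE 0.0810, limma adjusted p = 0.0136), the highest. Both calls held under all 4 other scalings and were lost without anti–VEGF-B replicate 3, Actr1a at -0.64 (limma adjusted p = 0.0539) and Actr10 at 0.33 (limma adjusted p = 0.0598). Actr1b, a close relative of Actr1a, was lower in all 3 libraries given anti–VEGF-B (12.5 to 13.2 against 14.3 to 18.1 FPKM) without passing the test (-0.25, limma adjusted p = 0.0822).

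None of the 3 nuclear actin-related proteins passed the test or had a limma p under 0.05 before adjustment. The most abundant, Actr6, measured 3.11, 2.26 and 2.27 FPKM with anti–VEGF-B and 2.42, 3.47 and 3.19 FPKM with IgG. Its groups overlapped, at -0.18 (limma adjusted p = 0.335), which turned to 0.02, 0.06 and 0.04 under median centring, quantile and loess normalization.

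The direction of a member went with its level. Of the 10 members with a mean of at least 100 FPKM, 6 were above 0 (60%), of the 25 from 10 to under 100 FPKM 8 were (32.0%), and of the 26 from 1 to under 10 FPKM 6 were (23.1%). All tested genes had the same order over these levels, with 69.5% of 354, 39.8% of 2861 and 20.7% of 5601 genes above 0. The median log2 fold changes of the members in these classes were 0.10, -0.07 and -0.22, and those of all tested genes were 0.10, -0.07 and -0.21. Spearman's rank correlation of level with log2 fold change was 0.43 over the 61 members and 0.28 over the 8816 genes, as a description across genes, which are not independent replicates and share the same 6 libraries. The members called lower all lay under 100 FPKM, and the single call at or above it was Tuba1b, which rose.

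**Figure D3:**
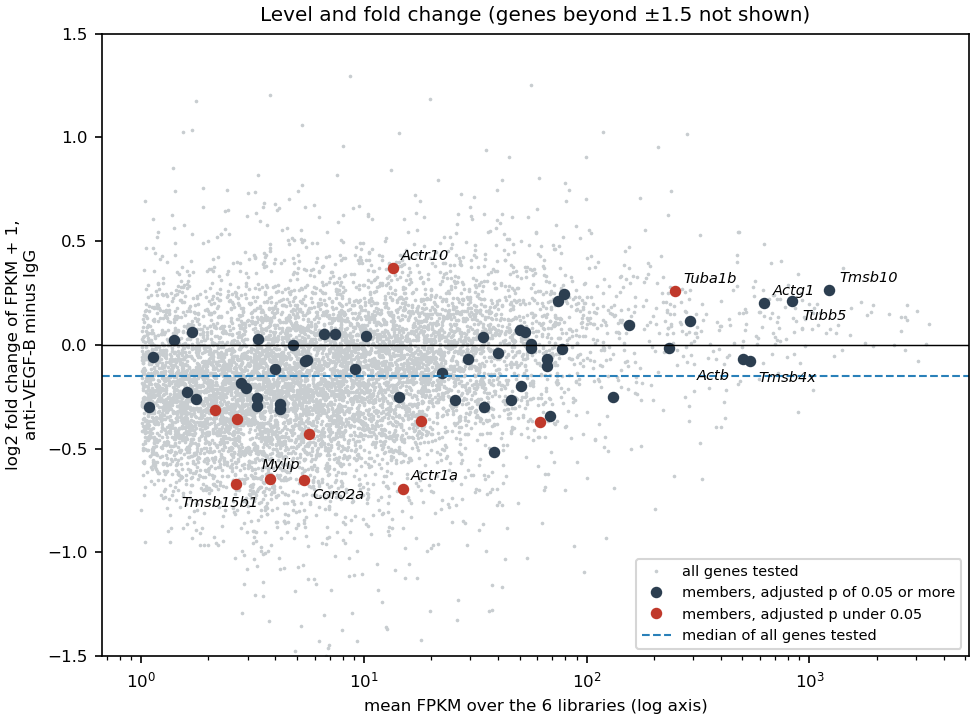
Log2 fold change (anti–VEGF-B minus IgG, log2(FPKM + 1) scale) against mean FPKM over the 6 libraries (log axis) for the members, called ones in red, and for the tested genes within the axis limits in grey. Members under 10 FPKM lie mostly below 0 (6 of 26 above it) and those of at least 100 FPKM more often above it (6 of 10), as do the other genes at those levels.

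Ratios between related genes in the same library do not change when a library is multiplied by a single factor, though quantile and loess normalization can change them, and 17 such pairs were compared on the deposited values. In 11 pairs the 3 ratios of 1 group lay wholly outside those of the other, each with p = 0.1 in a two-sided exact permutation test, the smallest p that 3 libraries against 3 can give (adjusted p = 0.155 over the 17 pairs). No pair could therefore pass the threshold. Of the tested genes taken singly, 49.0% did not overlap between the groups, and the share among other gene pairs was not computed. The remaining 6 pairs overlapped.

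Gene copies that replace each other showed the following balance. Actb stood to Actg1 at a ratio of 0.730 with anti–VEGF-B and 0.879 with IgG, a difference of -0.27 on the log2 scale. Tmsb4x stood to Tmsb10 at 0.397 and 0.504, a difference of -0.34. The lower ratio belonged to every anti–VEGF-B library in both pairs. Tuba1a stood to Tuba1b at 0.235 and 0.302, a difference of -0.36, and Tuba1b to Tuba4a at 97.1 and 61.6, a difference of 0.66, the widest of the 17. Cfl1 stood to Cfl2 at 105 and 74.7 (0.49), Actn4 to Actn1 at 6.12 and 4.52 (0.44), and Pfn1 to Pfn2 at 139 and 110 (0.34). Pfn2 was near 1 FPKM and passed the level filter through the IgG group alone, which favours a higher ratio with anti–VEGF-B. The difference for Pfn1 to Pfn2 was 0.0479 with 1 added to each FPKM and 0.18 without anti–VEGF-B replicate 2.

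The groups were also apart in 4 further pairs. Arpc1b stood to Arpc1a at 0.727 with anti–VEGF-B and 0.862 with IgG (-0.24). Tubb5 stood to Tubb2a at 103 and 80.8 (0.34) and to Tubb4b at 17.3 and 15.7 (0.14), and Myl12a to Myl12b at 2.04 and 1.94 (0.07). With 1 library left out, the difference for Arpc1b to Arpc1a moved to -0.14 (without anti–VEGF-B replicate 2) and that for Myl12a to Myl12b to 0.0444 (without IgG replicate 1). In all 11 separated pairs the more abundant gene of the pair was relatively higher with anti–VEGF-B, and in 1 of the 6 overlapping pairs it was; this count was taken after the values were seen, several pairs share a gene, and level and direction went together over all tested genes too. The pairs that overlapped were Arpc5 to Arpc5l, Capza1 to Capza2, Tpm3 to Tpm4, Coro1a to Coro1b, Tubb5 to Tubb6 and Actr2 to Actr3, with differences from -0.15 to 0.10. Tubb5 and Tubb6 stood at a mean ratio of 11.2 in both groups.

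**Figure D4:**
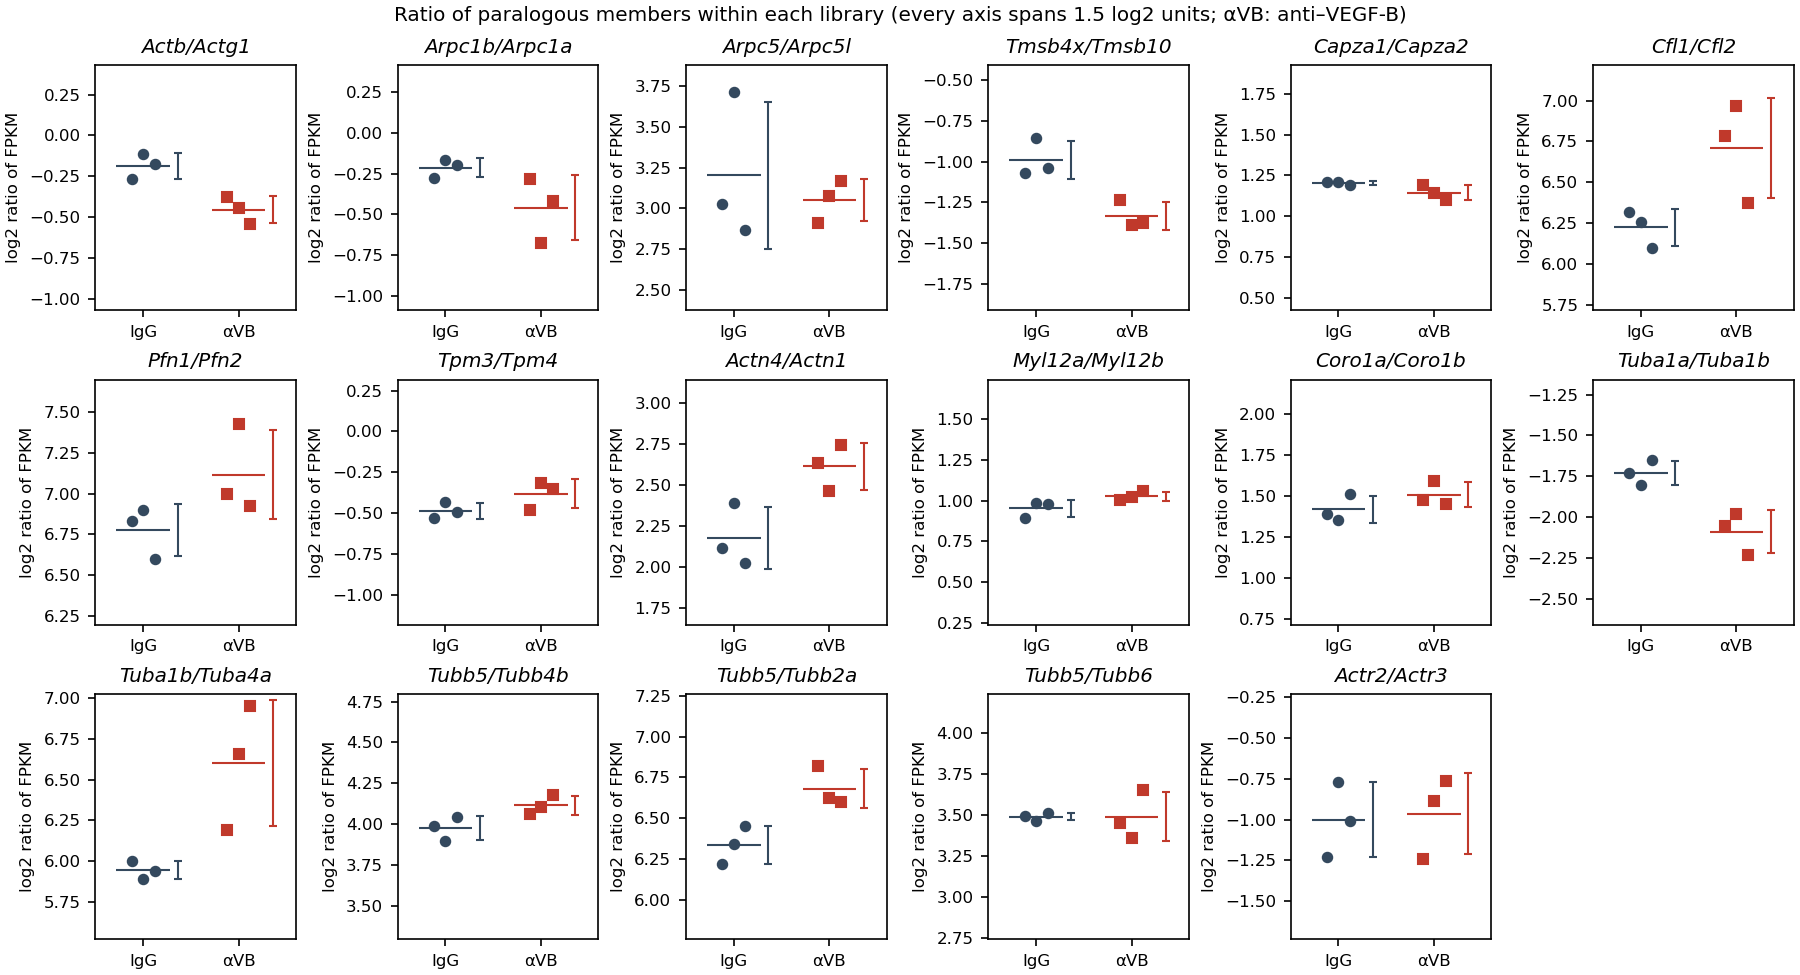
Log2 ratio of FPKM for each of the 17 pairs in each library, circles for IgG and squares for anti–VEGF-B (αVB), with a horizontal line at the group mean and the SD drawn beside it (n = 3), every axis spanning the same log2 range. The 3 anti–VEGF-B points lie wholly on 1 side of the IgG points in 11 pairs, most widely for Tuba1b to Tuba4a.

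Because the median gene was lower with anti–VEGF-B, the members were also compared under 4 other scalings. Tmsb15b1, Coro2a, Actr1a and Actr10 were called under every one of them. Median centring gave 3 members called lower and 10 called higher (9.15% and 15.5% of all genes), against 9 and 2 on the deposited scale. Quantile normalization gave 6 and 1 (10.4% and 9.98% of all genes), and loess normalization 5 and 1 (10.6% and 9.66%). Scaling to Actb gave 4 and 2 (14.8% and 4.14%). Members called after median centring and not on the deposited scale were Actg1, Arpc2, Arpc3, Coro1a, Coro1c, Myl6, Tmsb10 and Tubb6, all higher. The split between higher and lower calls of the family thus turned with the scaling. Each of the 11 called genes kept its sign under all 4, but they were picked by their calls in these same data. Median centring moves all genes by the same amount, less than any called drop, so it could not turn their signs. All but Tmsb15b1, Coro2a, Actr1a and Actr10 lost the call under at least 1 scaling.

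**Figure D5:**
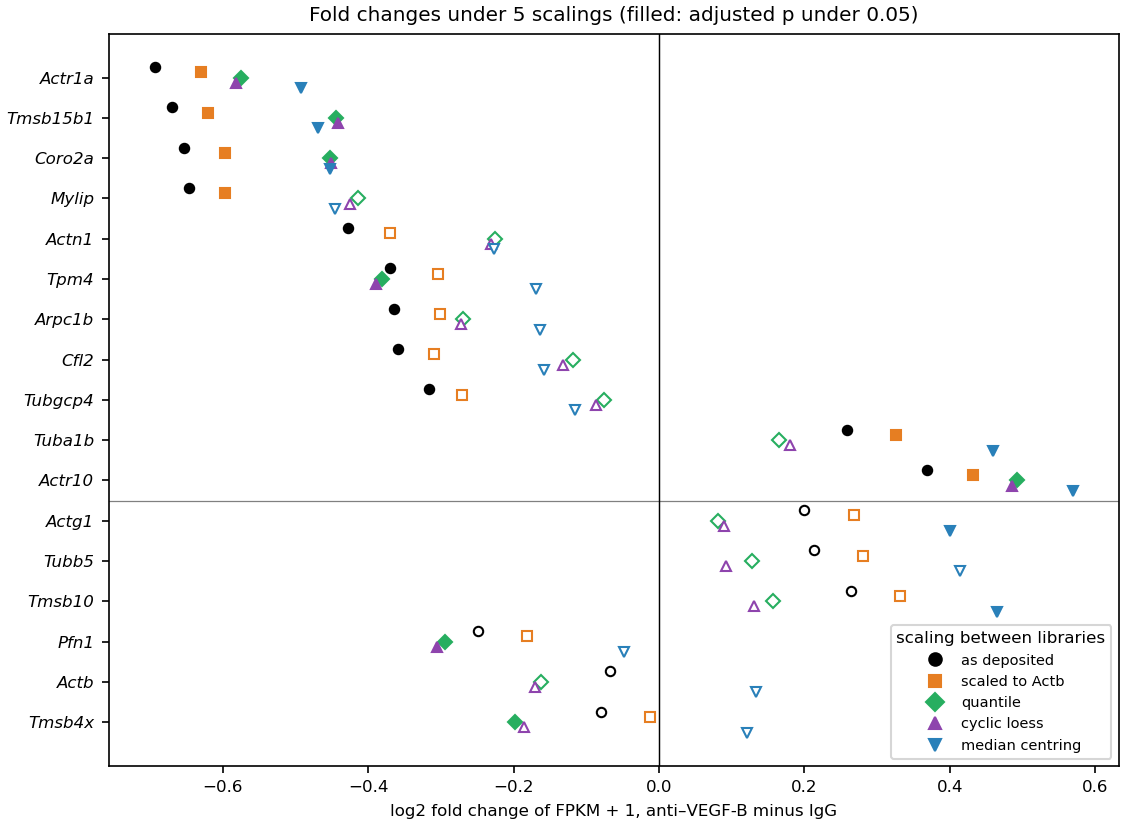
Log2 fold change of named members on the deposited scale and under quantile normalization, median centring, scaling to Actb and loess normalization, with filled points where the adjusted p was under 0.05. Tmsb15b1, Coro2a, Actr1a and Actr10 are filled under all of them, and points shift to the right under median centring.

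Genes that act on this machinery were read from the same fit in 4 lists, beside the 28.7% of all tested genes called and their median of -0.15. Among the nucleation promoting factors and formins, which switch on the Arp2/3 complex or elongate filaments, 6 of 27 tested genes fell and none rose (22.2% called, median log2 fold change -0.11). Wipf1, the partner that stabilizes the Wiskott-Aldrich syndrome protein, measured 22.1, 21.0 and 16.5 FPKM with anti–VEGF-B and 31.9, 43.7 and 34.9 FPKM with IgG, and fell by 0.86 on the log2 scale (SE 0.136, limma adjusted p = 0.00635). Dbnl, a drebrin-like adaptor of T cell receptor signalling, measured 5.49, 4.46 and 3.45 FPKM with anti–VEGF-B and 8.01, 14.9 and 8.11 FPKM with IgG, and fell by 1.02 (SE 0.222, limma adjusted p = 0.0136). In both genes every anti–VEGF-B library was below every IgG library. Washc4, of the endosomal WASH complex, measured 1.75, 1.79 and 1.24 FPKM with anti–VEGF-B and 2.66, 4.76 and 3.34 FPKM with IgG. The formin Inf2 measured 1.82, 2.02 and 1.48 FPKM with anti–VEGF-B and 3.25, 4.16 and 2.75 FPKM with IgG. Neither overlapped between the groups, and they fell by 0.80 and 0.65 (limma adjusted p = 0.0124 and 0.0126), the call for Inf2 being lost without anti–VEGF-B replicate 3 (limma adjusted p = 0.0503).

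Among actin binding, bundling and membrane linking proteins, 11 of 35 tested genes fell and 1 rose (34.3% called, median -0.19). Ezr, the gene for ezrin, which ties actin to the plasma membrane, measured 30.1, 28 and 26.9 FPKM with anti–VEGF-B and 44.8, 51.9 and 43.0 FPKM with IgG. The related Msn, the gene for moesin, measured 59.7, 59.6 and 50.9 FPKM with anti–VEGF-B and 70.3, 93.0 and 82.1 FPKM with IgG. Neither overlapped between the groups, and they fell by 0.69 (SE 0.0896, limma adjusted p = 0.00471) and 0.51 (SE 0.111, limma adjusted p = 0.0129). The twinfilin gene Twf1, whose product binds actin monomers, measured 4.29, 3.66 and 4.28 FPKM with anti–VEGF-B and 5.98, 8.51 and 7.07 FPKM with IgG. Flna, the gene for the filament cross-linker filamin A, measured 7.25, 7.92 and 6.14 FPKM with anti–VEGF-B and 9.83, 14.7 and 11.5 FPKM with IgG. Both were again apart, and they fell by 0.68 and 0.67 (limma adjusted p = 0.00889 and 0.0128). Of these calls that for Msn was lost without anti–VEGF-B replicate 3 (limma adjusted p = 0.050004), and the others held with each library left out.

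Of 33 tested genes for tubulin folding, microtubule binding and motors, 5 fell and 2 rose (21.2% called, median -0.11). Kif2a, a kinesin that takes microtubules apart, measured 51.0, 51.8 and 48.9 FPKM with anti–VEGF-B and 37.9, 38.7 and 42.6 FPKM with IgG, and rose by 0.34 (SE 0.0748, limma adjusted p = 0.0136). Nedd1, which brings the gamma-tubulin ring to the centrosome, measured 1.52, 1.40 and 1.68 FPKM with anti–VEGF-B and 2.27, 3.88 and 3.18 FPKM with IgG, and fell by 0.68 (SE 0.147, limma adjusted p = 0.0132). Both were without overlap. The tubulin cofactor gene Tbcel measured 3.69, 4.12 and 3.54 FPKM with anti–VEGF-B and 5.62, 8.54 and 5.79 FPKM with IgG. Tbcc measured 1.38, 1.52 and 1.42 FPKM with anti–VEGF-B and 2.54, 2.86 and 2.00 FPKM with IgG. Every anti–VEGF-B library was lower in these genes, which fell by 0.66 and 0.50 (limma adjusted p = 0.0138 and 0.0162), and both calls were lost without anti–VEGF-B replicate 3 (limma adjusted p = 0.0516 and 0.0574), that for Tbcc also under 3 of the 4 other scalings.

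The last list held serum response factor, a transcription factor that drives actin genes, with its partner factors and 1 of its targets, and 3 of its 8 tested genes fell and none rose (37.5% called, median -0.27). The 3 were Srf itself, Elk3 and Fosl1, and neither Mkl1 nor Mkl2, the coactivators that read the actin monomer pool, passed the test. Srf measured 7.67, 8.31 and 7.21 FPKM with anti–VEGF-B and 10.4, 9.05 and 9.80 FPKM with IgG, and fell by 0.30 (SE 0.0938, limma adjusted p = 0.0402), a call kept without IgG replicate 2 and lost without any other library (limma adjusted p = 0.0520 to 0.143) and under all 4 other scalings. Elk3, a ternary complex factor, measured 2.71, 2.20 and 1.79 FPKM with anti–VEGF-B and 3.51, 4.28 and 3.66 FPKM with IgG, and fell by 0.58 (limma adjusted p = 0.0138), a call lost without anti–VEGF-B replicate 3 (limma adjusted p = 0.0539). Fosl1, an AP-1 gene that serum response factor can drive, measured 0.724, 1.14 and 0.753 FPKM with anti–VEGF-B and 1.83, 3.43 and 1.90 FPKM with IgG, and fell by 0.83 (SE 0.178, limma adjusted p = 0.0129). Its mean was 0.873 FPKM with anti–VEGF-B and 2.39 FPKM with IgG. The IgG group alone thus carried Fosl1 past the level filter, which favours a lower value with anti–VEGF-B. Mkl1 was at -0.12 (limma adjusted p = 0.460). Mkl2 measured 1.19, 1.80 and 1.69 FPKM with anti–VEGF-B and 1.96, 2.79 and 2.34 FPKM with IgG, at -0.39 (limma adjusted p = 0.0547), and passed without IgG replicate 1 (-0.48, limma adjusted p = 0.0388).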

How the data were processed

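Total RNA was extracted with TRIzol and made into libraries with a stranded kit, per the labels. Reads were aligned by the authors to GRCm38/mm10 with HISAT2 and quantified with StringTie and Ballgown. The values the authors deposited, 1 per gene and library, are read here as FPKM from those tools, scaled for gene length and library size. Their unit is not named, they are not whole numbers, and no step that scales libraries to each other is stated. Depth is unknown: at most 2.62% of genes under 0.3 FPKM shared a ratio between any pair of libraries, so whole reads were not recovered. Every value column was mapped to a sample.

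Genes whose mean reached 1 FPKM were tested on log2(FPKM + 1) with limma 3.58.1 (R 4.3.3, empirical Bayes with trend) and Benjamini-Hochberg adjustment over 8816 genes, with a call at an adjusted p under 0.05. In a test on simulated data with 200 changed genes, 92.0% of log2 changes of 1 and 41.5% of log2 changes of 0.5 were recovered. In the deposited data 2528 of the 8816 tested genes were called, 2099 of them lower with anti–VEGF-B. Recovery with so many genes called, mostly in 1 direction, was not tested. Values in every library are given for called members, the most abundant member of each role, the members of the ratio pairs, and the 4 genes of lowest p in each further list. The members and lists were chosen with earlier results of these data known. Protein and promoter sequences were not analysed here. A further gene list is not reported here. Alternatives were 4 scalings, 2 level filters, a pseudocount of 0.1, no variance moderation, a replicate block, a fold rule and each library left out.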

Additional observations from a re-analysis of the deposited data

How the results depend on the processing

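Of the 61 members, 11 were called on the deposited scale (9 lower, 2 higher). Quantile normalization gave 7 (6 lower, 1 higher), median centring 13 (3 lower, 10 higher), scaling to Actb 6 (4 lower, 2 higher) and loess normalization 6 (5 lower, 1 higher), and a mean of at least 5 FPKM left 7 of 42 (5 lower, 2 higher). Against these stood 20.3%, 24.6%, 19.0%, 20.3% and 27% of all genes. Leaving out 1 library gave 3 to 11 calls (3 to 10 lower, 0 to 3 higher), the fewest without anti–VEGF-B replicate 3 (3 of 61, against 9.74% of all genes) and IgG replicate 2 (5 of 61, against 15.4%). Without moderation of the variance 0 members were called in any direction, with 16 at an unadjusted p under 0.05 and 12 genes called in the whole table. Calling members by an unadjusted p under 0.05 and a log2 fold change past 0.5 in size gave 4 members, 4 lower and 0 higher, against 12.7% of all genes. A pseudocount of 0.1 gave 12 calls among the 61 members (28.5% of all genes), and dropping the level filter gave 11 (25.0% of all genes). With the group mean of each gene taken out, same-numbered libraries correlated at -0.0296, 0.110 and 0.0891, and differently numbered ones at -0.175 to 0.0997. The labels name no pairing, and these values from 3 libraries a group do not settle it. A fit with the replicate block gave 14 calls among the 61 members (9 lower, 5 higher), against 29.2% of all genes (23.9% lower, 5.32% higher). The median log2 fold change of the members was 0.12 after median centring and -0.12 to -0.07 with 1 library left out.

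After median centring these genes had log2 fold changes above 0: Actb 0.13, Actn4 0.13, Actr6 0.0175, Arpc1a 0.0654, Capza1 0.18, Cfl1 0.19, Myl12a 0.00057, Tmsb4x 0.12, Tuba1a 0.10, Tubb2a 0.0820 and Tubg1 0.13. Quantile normalization gave Actr6 0.0613, Tubb2a 0.0403 and Tubg1 0.13, loess normalization gave Actr6 0.0434, Tubb2a 0.0337, Tubg1 0.12 and Coro1b -0.0061, and scaling to Actb gave Capza1 0.0454 and Cfl1 0.0544. With 1 library left out, Capza1 ran from -0.0529 to 0.0139, Cfl1 from -0.0752 to 0.0375 and Coro1b from -0.0570 to 0.0548. The differences of the log2 ratios then ran from -0.32 to 0.10 for Arpc5 to Arpc5l, -0.0842 to 0.0631 for Tubb5 to Tubb6 and -0.0767 to 0.176 for Actr2 to Actr3, and with 1 added to each FPKM that of Tubb5 to Tubb6 was 0.000931. The cause was not tested. Depth is unknown, so no counting error can be given, which limits the genes near 1 FPKM most.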
